A study of Mus musculus with 18 samples.

Results

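A set of 10 genes of the activated blood vessel wall was examined in the mouse heart after a single dose of ionizing radiation. They are the peptide apelin and its receptor (Apln and Aplnr), the angiopoietins and their receptor (Angpt1, Angpt2 and Tek), Esm1, Ctla2a, Mcam, Nid2 and Cd34. The genes were chosen by name as apelin, angiopoietin and endothelial tip cell genes, with their response in these data already known, and all 10 were found among the 30072 genes in the deposited tables. Because the same 3 comparisons were known when they were selected, their differences between groups are given as a description with standard errors (SE) and without P values. All 18 mice were adult CD-1 animals of both sexes, aged 8 weeks or older, with littermate controls, and the labels give a mixed background where the study's methods call the CD-1 mice outbred wild type. The sex of each mouse was not used. By the study's methods, the 6 ctrl mice were anesthetized and imaged by CT but received no treatment dose. The 6 mice of the 2wk group and the 6 mice of the 6wk group received 25 Gy once under isoflurane. The dose was aimed by CT at the whole heart, and the mice were studied 2 and 6 weeks later. Each group holds different mice, so a course over time is read across animals. The labels and the study's methods give neither the harvest time of the ctrl mice nor the age of each mouse at harvest. Age and harvest batch therefore cannot be told apart from time after irradiation. RNA came from the whole septum between the ventricles, a tissue of cardiomyocytes with many capillaries.

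Endothelial cells that are activated to sprout or remodel, the tip cells at the front of a growing vessel among them, switch on a recognizable set of genes. Apelin is secreted by such cells and signals through the G protein-coupled receptor encoded by Aplnr on endothelial and heart muscle cells. Angpt1, made mainly by cells around the vessel, activates the receptor tyrosine kinase encoded by Tek and keeps vessels quiet, whereas Angpt2, made by endothelial cells, can block that signal and loosen the vessel wall. Esm1 encodes a secreted proteoglycan that is a hallmark of tip cells.

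Each library held 11522987 to 15501019 estimated counts, and levels are given as CPM, counts scaled to library size, after TMM scaling, with factors of 0.844 to 1.13 that were higher in every 6wk mouse than in any other mouse. Scaling matters for small differences here. With library size alone the median log2 difference of all genes moved to 0.15 at 2wk, 0.24 at 6wk and 0.11 between the 2 irradiated groups, against -0.00, -0.02 and -0.00 with TMM. Markers of heart cell types were present, which does not tell the septum from other ventricular muscle. None of the 8 cardiomyocyte, 11 endothelial, 9 pericyte and smooth muscle or 8 fibroblast markers was at 0 in any mouse, while among 8 leukocyte markers Nkg7 and Cd79a were at 0 in 2 mice each.

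Of the 10 genes, 7 were higher and 1 was lower at 6wk than in ctrl at an adjusted P under 0.05 (edgeR quasi-likelihood test, adjusted over 15054 genes). The same rule called 13.5% of all genes higher and 11.5% lower, and since the genes were selected on this contrast nothing is read from their count. At 2wk, 4 were called higher and 1 lower than in ctrl, beside 3.09% and 1.93% of all genes. Between 2wk and 6wk, 6 were called higher and 1 lower at the later time, beside 3.31% and 2.01%. With library size alone 6 were called higher and 0 lower at 2wk, and 6 higher and 0 lower between 2wk and 6wk, so the calls of Tek in these comparisons depended on scaling. In 6 genes every 6wk mouse lay above every ctrl mouse and in 1 gene, Tek, below, where the shares of all genes were 5.8% and 3.43%. At 2wk 4 of the 10 lay wholly above ctrl and 0 wholly below, where those shares were 1.96% and 1.28%. At 6wk 5 lay wholly above 2wk and 0 wholly below, where they were 2.27% and 1.27%. The median log2 difference of the 10 genes was 0.40 at 2wk and 1.51 at 6wk against ctrl, and 0.69 between the irradiated groups. The comparisons with ctrl share the same 6 control mice, so their values stand side by side and are not independent of each other.

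**Figure D1:**
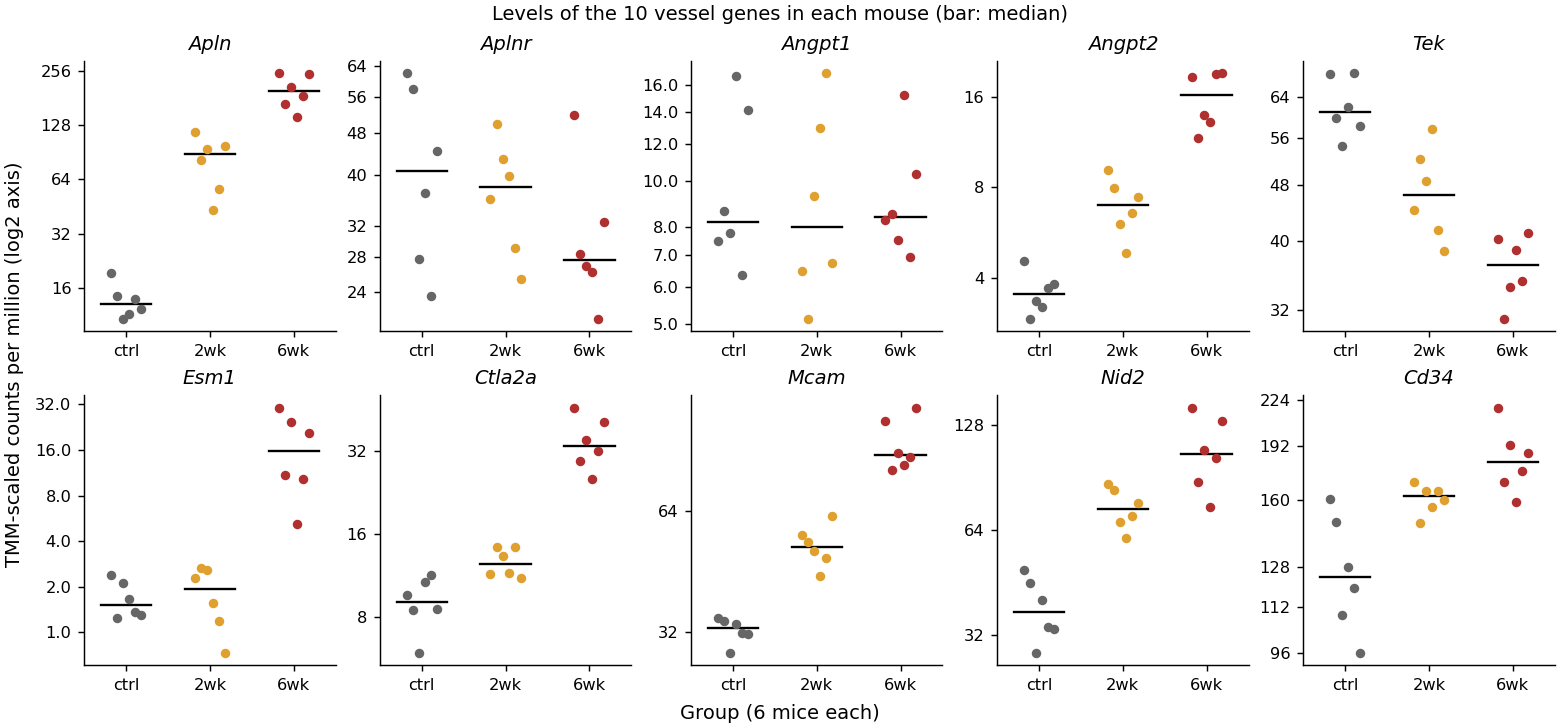
TMM-scaled CPM of each gene (vertical log2 axis, different range in each panel) in the 6 mice of each group (horizontal axis), 1 point per mouse with a bar at the group median. Apln, Angpt2, Mcam and Nid2 lie above ctrl in all 6 mice at 2wk, Esm1 and Ctla2a separate from ctrl in all 6 mice at 6wk, Tek lies lower at 6wk, and Aplnr and Angpt1 overlap throughout.

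Apln differed from ctrl more than any other of the 10 genes at 2wk and at 6wk. Apln (ENSMUSG00000037010, GRCm38 chromosome X, 48025146 to 48034853, minus strand) ranged from 10.8 to 19.3 CPM in ctrl, with a median of 13.1. At 2wk it ranged from 43.6 to 116.6 CPM with a median of 88.1. At 6wk it ranged from 141.7 to 247.9 CPM with a median of 197.2. The 3 ranges did not overlap in this order, and all 6 mice of each irradiated group stood above the highest ctrl mouse. The log2 fold change was 2.57 ± 0.22 (SE, n = 6 a group) at 2wk and 3.86 ± 0.23 at 6wk, or 5.94-fold and 14.5-fold. The difference between 6wk and 2wk was 1.29 ± 0.20 on the log2 scale. In mean CPM, 36.7% of the 6wk difference was present at 2wk.

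Aplnr, the receptor, did not follow its ligand. Aplnr (ENSMUSG00000044338, chromosome 2, 85136225 to 85139923, plus strand) ranged from 23.7 to 62.1 CPM in ctrl with a median of 40.7. It ranged from 25.4 to 49.7 CPM (median 37.9) at 2wk and from 21.4 to 51.8 CPM (median 27.7) at 6wk. The groups overlapped widely, and 6wk mouse 1 alone, at the top of its group, stood apart from the other 5. The log2 difference at 6wk was -0.43 ± 0.24 (SE). Its sign was not settled by scaling, as it was -0.17 with library size alone and 0.00 on log2(TPM + 1). TPM values, which correct for transcript length and depth and so allow genes to be set side by side within a mouse, placed Apln below its receptor in every ctrl mouse and above it in every irradiated mouse. The ratio of Apln to Aplnr was 0.27 to 0.637 in ctrl, 1.17 to 4.18 at 2wk and 5.18 to 9.26 at 6wk, with medians of 0.337, 2.23 and 7.27.

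A further 7 genes of apelin production, breakdown and signaling give the surroundings of this pair, of which 6 were tested. This list and the later companion lists were chosen with earlier results of these data known. Their P values describe these mice and are not independent support. Apela, the second peptide ligand of the receptor, had 0 counts in all 18 mice, and the floor of 3 counts corresponds to at most 0.26 CPM per mouse. At 2wk 0 of the 6 were called (3 higher with library size alone), and at 6wk 3 were called higher and 1 lower than in ctrl, with a median log2 difference of 0.18. Arrb2, which encodes a beta-arrestin that desensitizes receptors of this class, rose from 10.3 ± 1.24 CPM (mean ± SD, n = 6) in ctrl to 19.8 ± 3.51 at 6wk (log2 fold change 0.93, adjusted P = 1.90e-05 in edgeR). Arrb1, the other beta-arrestin, rose by 0.40 on the log2 scale (adjusted P = 0.00201, edgeR). Prcp, a carboxypeptidase able to trim apelin, rose by 0.70 (adjusted P = 3.95e-04, edgeR). Mme, the gene of neprilysin, a protease that cleaves apelin peptides, fell from 16.3 ± 1.18 to 8.43 ± 3.01 CPM, with a log2 fold change of -0.96 (adjusted P = 3.64e-04, edgeR). Furin, which processes the apelin precursor, differed by -0.04 and did not pass the test.

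Among the angiopoietins the difference lay in Angpt2, the antagonist. Angpt2 (ENSMUSG00000031465, chromosome 8, 18690263 to 18741562, minus strand) ranged from 2.92 to 4.56 CPM in ctrl with a median of 3.52. It ranged from 4.84 to 9.1 CPM (median 6.98) at 2wk and from 11.7 to 19.2 CPM (median 16.3) at 6wk. These ranges did not overlap, and the order was ctrl, 2wk, 6wk. On the log2 scale the fold change was 0.95 ± 0.18 (SE) at 2wk, 2.15 ± 0.17 at 6wk and 1.20 ± 0.16 between the irradiated groups. Angpt2 lies within Mcph1, a gene on the opposite strand, whose mean level was 7.88 CPM in ctrl and 8.47 CPM at 6wk (log2 difference 0.10).

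Angpt1, the activating ligand, showed no such pattern. Angpt1 (ENSMUSG00000022309, chromosome 15, 42424723 to 42676977, minus strand) ranged from 6.35 to 16.7 CPM in ctrl, 5.13 to 16.9 CPM at 2wk and 6.92 to 15.2 CPM at 6wk, with medians of 8.22, 8.03 and 8.42. The 3 groups covered nearly the same range. Its log2 difference at 6wk was -0.11 ± 0.30 (SE), and its sign changed with scaling (0.15 with library size alone, 0.26 on log2(TPM + 1)). The TPM ratio of Angpt2 to Angpt1 within a mouse was 0.223 to 0.699 in ctrl, 0.416 to 1.74 at 2wk and 0.999 to 3.21 at 6wk, so Angpt1 was the higher ligand in every ctrl mouse and the 6wk range lay wholly above that of ctrl. The 2wk mice spanned both sides, with a median ratio of 1.14.

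Tek, the receptor shared by both ligands, was the 1 gene of the 10 called lower. Tek (ENSMUSG00000006386, chromosome 4, 94739289 to 94874976, plus strand) ranged from 54.6 to 69.1 CPM in ctrl (median 60.9), 38.77 to 57.6 CPM at 2wk (median 46.5) and 31.1 to 41.1 CPM at 6wk (median 37.0). All 6 mice at 6wk and 5 of 6 at 2wk lay below the lowest ctrl mouse. Its log2 fold change was -0.40 ± 0.10 (SE) at 2wk and -0.75 ± 0.10 at 6wk. Under the scalings and models run on all genes it stayed below 0 at 6wk, between -0.77 and -0.32, but on the deposited TPM scale ctrl (12.4 to 19.4) and 6wk (9.91 to 13.5) overlapped.

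Among genes that act with Tek, the phosphatase Ptprb and the partner receptor Tie1 fell and the adaptor Dok2 rose. Of 6 such genes, 2 were called lower and 0 higher at 2wk, and 2 lower and 1 higher at 6wk, with a median log2 difference of -0.08 at 6wk. With library size alone the counts were 0 lower and 1 higher at 2wk and 0 lower and 2 higher at 6wk. Ptprb, the phosphatase that restrains Tek, fell from 312.9 ± 20.2 CPM (mean ± SD, n = 6) in ctrl to 246.6 ± 12.01 at 6wk, with a log2 fold change of -0.34 (adjusted P = 3.33e-04, edgeR). Tie1, the partner receptor, fell from 87.9 ± 6.53 to 65.0 ± 6.99 CPM, with a log2 fold change of -0.44 (adjusted P = 3.84e-04, edgeR). The call and, for Ptprb, the direction depended on scaling. With library size alone the 6wk differences were -0.08 for Ptprb and -0.17 for Tie1, on log2(TPM + 1) they were 0.057 and -0.058, and neither was then called. Dok2, an adaptor downstream of the receptor, rose from 2.62 ± 0.55 to 4.52 ± 0.99 CPM (log2 fold change 0.79, adjusted P = 0.00206, edgeR). Foxo1, the transcription factor restrained by this receptor, differed by -0.02, and Svep1 by 0.53 and Angpt4 by -0.14, none past the test. The Tek to Tie1 ratio of TPM, which does not depend on the scaling between mice, was 0.627 to 0.761 in ctrl and 0.525 to 0.648 at 6wk, with medians of 0.733 and 0.58 and an overlap between the groups.

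**Figure D2:**
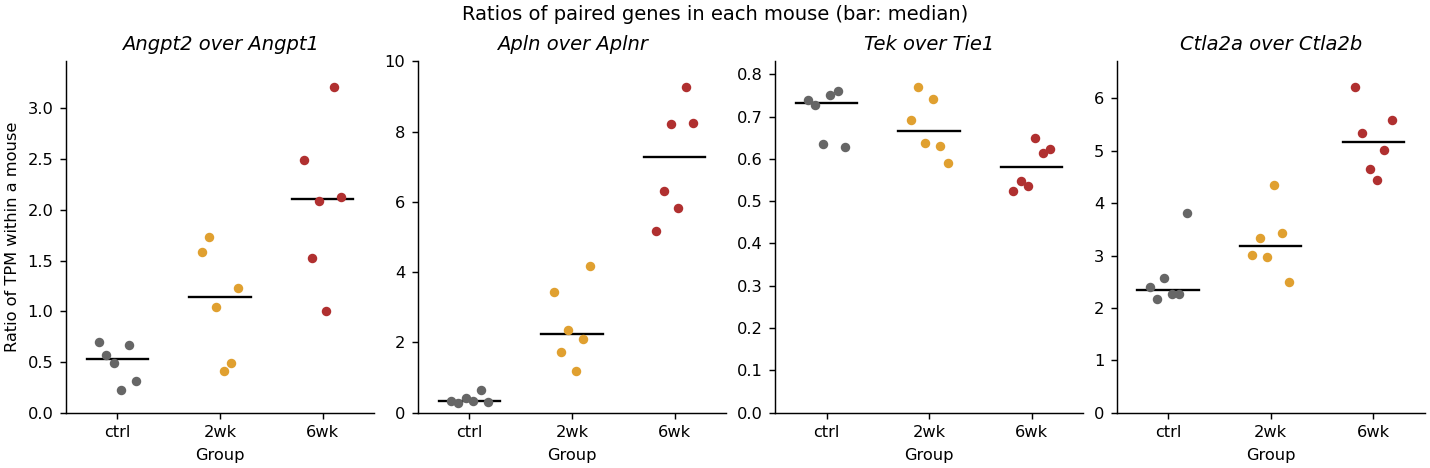
Ratio of the TPM values of 2 genes within a mouse (vertical axis from 0) in ctrl, 2wk and 6wk (horizontal axis), 1 point per mouse with a bar at the median. Apln over Aplnr and Angpt2 over Angpt1 are below 1 in all 6 ctrl mice and have medians of 7.27 and 2.11 at 6wk, Tek over Tie1 has a median of 0.58 at 6wk against 0.733 in ctrl, and Ctla2a over Ctla2b has a median of 5.18 against 2.34.

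Esm1 separated the 2 irradiated groups most sharply. The RefSeq promoter window of Esm1 (GRCm38.p6, chr13:113209409-113209708, plus strand, 250 bases before to 50 after the start) is shown because Esm1 and Apln, hallmarks of the same endothelial state, differed in their time course. Capitals mark the letters GCGTG, 1 of the 2 core forms of the hypoxia response element (ACGTG and GCGTG, searched on both strands, which do not overlap here).
Esm1: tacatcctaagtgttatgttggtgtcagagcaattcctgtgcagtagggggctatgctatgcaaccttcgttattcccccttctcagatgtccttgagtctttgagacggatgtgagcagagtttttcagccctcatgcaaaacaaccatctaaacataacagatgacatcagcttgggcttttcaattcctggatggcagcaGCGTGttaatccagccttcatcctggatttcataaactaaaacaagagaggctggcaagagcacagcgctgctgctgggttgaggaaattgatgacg
The match starts 47 bases before the start site. Of all 32851 windows in the table, 43.8% held either form, and the Apln window held neither, which says only that these letters are not in that window. Of the 10 genes, 6 had a window.

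Esm1 (ENSMUSG00000042379, chromosome 13, 113209659 to 113218098, plus strand) was at 1.25 to 2.41 CPM in ctrl with a median of 1.51. At 2wk it was at 0.733 to 2.65 CPM with a median of 1.92. At 6wk it was at 5.19 to 30.5 CPM with a median of 15.8. The 2wk range spanned that of ctrl, with 2 mice above the highest and 2 below the lowest ctrl mouse, and all 6 mice at 6wk stood above both. The log2 fold change was 0.10 ± 0.50 (SE) at 2wk, 3.32 ± 0.39 at 6wk and 3.22 ± 0.38 between the irradiated groups, so that 0.964% of the 6wk difference in mean CPM was present at 2wk. These levels rest on 15 to 37 estimated counts per mouse in ctrl, 10 to 37 at 2wk and 70 to 511 at 6wk. The 2wk mice varied by 42.9% (coefficient of variation). The parts of low counts and of differences between mice in the wide 2wk standard error were not tested. The 6wk mice also differed most among themselves in this gene, with a coefficient of variation of 57.2% against 21.3% for Apln. Esm1 overlaps Gzmk, a gene on the opposite strand, and any part of Gzmk reads in the Esm1 counts was not tested. Leaving out any 1 mouse gave 2wk values between -0.03 and 0.26.

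**Figure D3:**
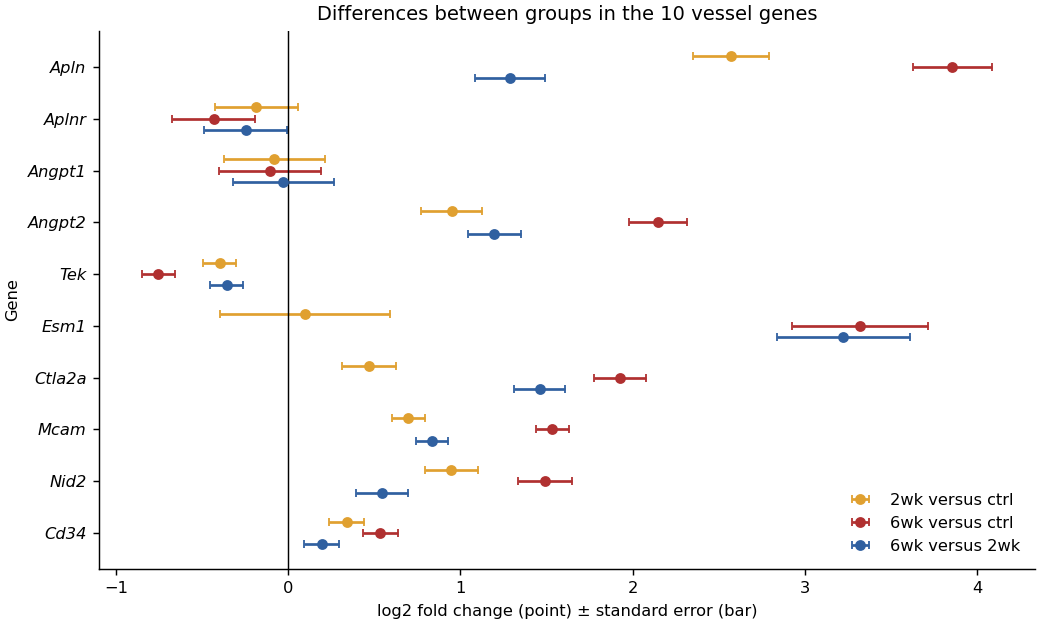
Log2 fold change of each gene (point, horizontal axis) with its standard error (bar) for 2wk versus ctrl, 6wk versus ctrl and 6wk versus 2wk. Apln, Angpt2, Mcam and Nid2 are above 0 in all 3 comparisons, Esm1 is near 0 at 2wk and at 3.32 at 6wk, Tek is below 0 in all 3, and the bars of Angpt1 cross 0.

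Ctla2a, which encodes a cathepsin inhibitor resembling the propeptide of cathepsin L, was the other late gene. It has a close copy, Ctla2b, on the same chromosome, and reads from shared stretches can be split between them. Of the 31-base words in the annotated Ctla2a transcripts, 20.7% also occur in those of Ctla2b, and the annotated genes Gm49393 and Gm49391, which overlap both copies on the same strand, were not part of this count. Their RefSeq promoter windows (GRCm38.p6, minus strand, chr13:60936576-60936875 for Ctla2a and chr13:60897398-60897697 for Ctla2b) are shown to compare the copies, with capitals at bases that differ or have no partner in the alignment.
Ctla2a: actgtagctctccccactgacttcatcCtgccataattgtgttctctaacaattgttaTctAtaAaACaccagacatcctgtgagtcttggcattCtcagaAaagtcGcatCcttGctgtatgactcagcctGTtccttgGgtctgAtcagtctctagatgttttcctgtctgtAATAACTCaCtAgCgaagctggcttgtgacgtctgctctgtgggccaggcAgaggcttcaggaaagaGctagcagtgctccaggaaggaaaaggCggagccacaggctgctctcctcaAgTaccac
Ctla2b: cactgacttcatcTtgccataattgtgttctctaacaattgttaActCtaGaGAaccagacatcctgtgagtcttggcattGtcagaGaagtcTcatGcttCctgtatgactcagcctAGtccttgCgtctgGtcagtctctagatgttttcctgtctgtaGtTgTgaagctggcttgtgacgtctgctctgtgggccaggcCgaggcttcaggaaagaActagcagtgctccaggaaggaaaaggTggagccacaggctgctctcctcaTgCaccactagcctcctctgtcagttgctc
Over 278 aligned bases 255 were identical (91.7%), and Ctla2a had 8 bases within the alignment that Ctla2b lacks.

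Ctla2a (ENSMUSG00000044258, chromosome 13, 60934155 to 60936625, minus strand) ranged from 5.92 to 11.3 CPM in ctrl with a median of 9.05. It ranged from 11.1 to 14.4 CPM (median 12.4) at 2wk and from 25.4 to 46.1 CPM (median 33.5) at 6wk. Of the 2wk mice 5 lay above the highest ctrl mouse, and the 6wk range lay wholly above both other groups. Its log2 fold change was 0.47 ± 0.16 (SE) at 2wk, 1.93 ± 0.15 at 6wk and 1.46 ± 0.15 between the irradiated groups, and 13.9% of the 6wk difference in mean CPM was present at 2wk. Ctla2b ranged from 1.47 to 3.25 CPM in ctrl and 3.85 to 4.89 CPM at 6wk and rose by 0.81 on the log2 scale (adjusted P = 0.0018, edgeR). Between 2wk and 6wk it rose by 0.70 (adjusted P = 0.0238, edgeR), a call that was lost with a replicate block and when 2wk mouse 4 or 6wk mouse 1, 3 or 6 was left out. The TPM ratio of Ctla2a to Ctla2b was 2.17 to 3.81 in ctrl, 2.5 to 4.34 at 2wk and 4.44 to 6.21 at 6wk, the last above every other mouse. Ctsl, the protease whose propeptide both copies resemble, differed by 0.10 at 6wk and did not pass the test.

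Mcam and Nid2 differed from ctrl at both times. Mcam (ENSMUSG00000032135, chromosome 9, 44134469 to 44142727, plus strand), an adhesion molecule of endothelial cells and pericytes, ranged from 28.4 to 34.8 CPM in ctrl, 44.0 to 62.3 CPM at 2wk and 80.7 to 115.5 CPM at 6wk. The 3 ranges did not overlap, and ctrl mice varied by 7.07% (coefficient of variation), the least of the 10 genes. The log2 fold change was 0.70 ± 0.10 (SE) at 2wk, 1.53 ± 0.10 at 6wk and 0.84 ± 0.09 between the irradiated groups.

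Nid2 (ENSMUSG00000021806, chromosome 14, 19751265 to 19811787, plus strand), a nidogen that links laminin to collagen in the basement membrane, ranged from 28.4 to 49.1 CPM in ctrl, 60.8 to 86.8 CPM at 2wk and 74.4 to 143.7 CPM at 6wk. Both irradiated groups lay wholly above ctrl but overlapped each other. The log2 fold change was 0.95 ± 0.16 (SE) at 2wk and 1.49 ± 0.16 at 6wk, and 51.3% of the 6wk difference in mean CPM was present at 2wk. Rtraf, on the opposite strand and overlapping Nid2, was at 45.3 CPM in ctrl and 40.6 CPM at 6wk (log2 difference -0.16).

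Cd34 (ENSMUSG00000016494, chromosome 1, 194938819 to 194961279, plus strand), a surface sialomucin of endothelial and progenitor cells, had a small difference. It ranged from 96.0 to 160.8 CPM in ctrl, 148.2 to 170.3 CPM at 2wk and 158.9 to 218.5 CPM at 6wk, and 3 of 6 and 5 of 6 irradiated mice exceeded the highest ctrl mouse. Log2 fold changes were 0.34 ± 0.10 (SE) at 2wk and 0.54 ± 0.10 at 6wk. Opposite-strand antisense genes overlap Angpt1, Mcam and Cd34, and whether the counting used strand is not given in the sources used here.

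Genes of the basement membrane, to which Nid2 belongs, rose at 6wk. Of 10 other vessel basement membrane genes, 3 were called higher and 0 lower at 2wk, and 10 of 10 were called higher at 6wk. The shares of all genes called higher were 3.09% and 13.5%. Median log2 differences were 0.44 and 0.67 beside -0.00 and -0.02 over all genes. At 6wk Nid1, Hspg2 and Col15a1 were near the threshold (adjusted P = 0.0454, 0.0431 and 0.0406, edgeR). Col4a1 and Col4a2, the main chains of type IV collagen, rose from 614.5 ± 112.2 and 519.9 ± 79.6 CPM (mean ± SD, n = 6) in ctrl to 1574 ± 351 and 1293 ± 267.5 CPM at 6wk. Their log2 fold changes were 1.36 (adjusted P = 7.40e-06, edgeR) and 1.31 (adjusted P = 2.75e-06, edgeR). Sparc, a collagen-binding matrix protein, rose by 1.25 (adjusted P = 1.01e-05, edgeR) and Lama4, the laminin chain of vessel membranes, by 0.72 (adjusted P = 1.69e-05, edgeR). Nid1, the close relative of Nid2, was at the low end of the list with 0.26, beside 1.49 ± 0.16 for Nid2. Other tissue cells make these proteins too.

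Other genes of tip cells were more mixed. Of 14 tip cell genes other than the 10 described, 4 were called higher and 1 lower at 2wk. At 6wk 9 were called higher and 1 lower. Median log2 differences were 0.12 at 2wk and 0.63 at 6wk. Of the 9, Kcne3 had a mean of 0.177 CPM in ctrl, under the floor of 3 counts, and 0.867 CPM at 6wk. The expression filter counts mice of any group, so Kcne3 could pass it through irradiated mice alone. Pgf, a growth factor of the VEGF family, rose from 3.59 ± 0.99 CPM in ctrl to 6.06 ± 1.21 (mean ± SD, n = 6) at 2wk and 13.6 ± 2.41 at 6wk, a log2 fold change of 1.92 at 6wk (adjusted P = 5.94e-07, edgeR). Fscn1, an actin bundler of filopodia, rose by 0.83 at 2wk and 1.26 at 6wk (adjusted P = 6.87e-04 and 1.22e-06, edgeR). Plaur, the urokinase receptor, rose by 1.57 (adjusted P = 5.82e-05, edgeR) and Pdgfb, which draws pericytes to new vessels, by 0.74 (adjusted P = 2.25e-04, edgeR) at 6wk. Of the 14, 4 did not pass the test at 6wk. Among these, Kdr, the main VEGF receptor, was at 241.5 CPM in ctrl and 240.8 CPM at 6wk, and Dll4, a Notch ligand, differed by -0.20. Rgcc, a cell cycle regulator named after values were seen because it was the 1 gene called lower, fell by 1.14 on the log2 scale (adjusted P = 0.0136, edgeR).

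Genes of stalk and quiet endothelium were mostly not called. Of 9, 1 was called higher and 1 lower at 6wk, and 0 higher and 1 lower at 2wk, with a median log2 difference of 0.01 at 6wk. With library size alone 5 were called higher and 1 lower at 6wk. Flt1, a VEGF receptor that also acts as a decoy, fell from 179.2 ± 26.6 CPM (mean ± SD, n = 6) in ctrl to 131.8 ± 7.62 at 2wk and 112.3 ± 5.16 at 6wk, with a log2 fold change of -0.67 at 6wk (adjusted P = 1.16e-05, edgeR). Nrarp, a feedback inhibitor of Notch, rose by 0.34 (adjusted P = 0.035, edgeR), a call lost when any 1 of ctrl mice 1, 3 and 6 or 6wk mice 1 to 5 was left out.

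**Figure D4:**
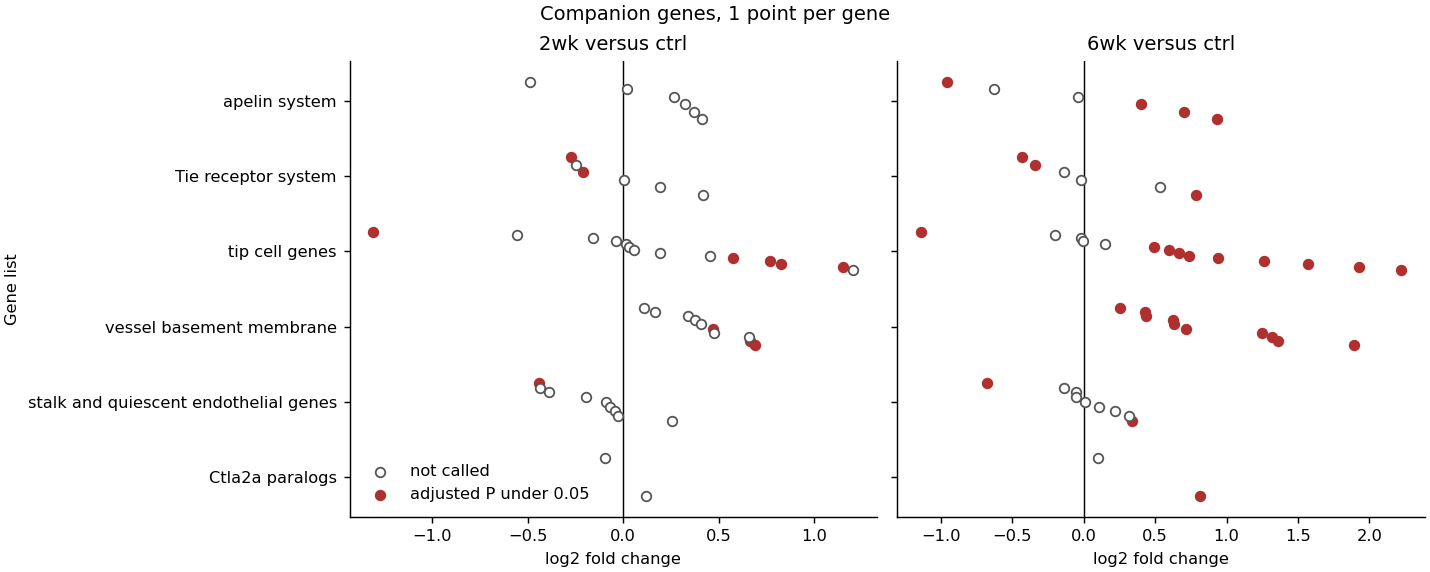
Log2 fold change (horizontal axis) of each gene of the 6 companion lists (vertical axis, 1 point per gene) at 2wk versus ctrl (left) and 6wk versus ctrl (right), filled where the adjusted P was under 0.05 in edgeR. All 10 vessel basement membrane genes are filled and right of 0 at 6wk. For tip cell genes 9 of 14 are filled to the right, of which Kcne3 had a ctrl mean under the floor of 3 counts. Most stalk genes are open and near 0.

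Set side by side per length in TPM, the order of the 10 genes changed. In ctrl Cd34 had the highest median (53.4 TPM), followed by Tek (14.2), Mcam (11.6) and Aplnr (11.2), and Esm1 was last (0.923). Cd34 stood clear of Tek, while the ranges of Tek, Mcam, Aplnr, Ctla2a, Nid2 and Apln each overlapped the next in the order. At 2wk Apln had moved from the seventh place to the second, at a median of 31.1 TPM. At 6wk the order began with Cd34 (102.4), Apln (78.2), Mcam (43.0), Ctla2a (42.3) and Nid2 (26.7), and Esm1 (12.8) had reached the level of Tek (11.7) and Aplnr (10.8), with overlapping ranges. Angpt1 was then last at 3.09 TPM.

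The 6wk mice were not equally placed. Mouse 1 was highest of its group in 6 of the 10 genes (Apln, Aplnr, Esm1, Cd34, Ctla2a and Nid2) and mouse 6 in 3 (Angpt2, Tek and Mcam). Mouse 4 was lowest in 5 (Apln, Esm1, Cd34, Ctla2a and Nid2). The same mice were at the ends of the summed level of 11 endothelial markers, mouse 1 at 1700 CPM, mouse 6 at 1492 CPM and mouse 4 at 1283 CPM, and the part of this in the values was not tested. Leaving out any 1 mouse kept the 6wk log2 fold change of Esm1 between 3.06 and 3.51, that of Apln between 3.78 and 3.98 and that of Ctla2a between 1.83 and 2.00.

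After the group means were removed, the log2 CPM of some genes still varied together over the 18 mice. Pearson's r was 0.82 for Mcam and Nid2, 0.78 for Apln and Mcam, 0.74 for Apln and Nid2 and 0.72 for Apln and Angpt2, whereas Esm1 and Apln had 0.46 and Apln and Tek -0.02. Apln and Angpt1 had -0.61. These values describe 18 libraries with shared tissue, scaling and cell content.

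Genes outside the 10 whose log2 CPM was most like that of each of 4 genes over the 18 mice, group differences included, are named with Pearson's r. For Apln they included Zmat3 (0.99), Ccnd1 (0.98), Fscn1 (0.98) and Nes (0.98). Angpt2 was nearest to Nes (0.97), Rgs16 (0.97), Lxn (0.95), Zmat3 (0.95) and Cdk6 (0.95), so Zmat3 and Nes stood on both lists. Esm1 was nearest to Tnfrsf26 (0.94), Arhgef28 (0.90), Pls3 (0.90), Fjx1 (0.89) and Ptchd1 (0.88). Ctla2a was nearest to Casp8 (0.95), Gng11 (0.95), Cttnbp2nl (0.95), Ptchd1 (0.94) and Rgs16 (0.94). With group means removed, r was 0.91 for Apln and Nes and 0.66 for Esm1 and Tnfrsf26. Zmat3 encodes an RNA-binding target of p53, and its mean level was 18.6 CPM in ctrl, 41.8 at 2wk and 62.0 at 6wk. Tnfrsf26, a receptor of the tumor necrosis factor family, was at 0.754, 0.858 and 4.05 CPM. It was named for its likeness to Esm1, group differences included, so a similar course follows from the choice.

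Markers of cell types moved as well. The marker lists too were chosen with earlier results of these data known, so their P values carry the same limit as those of the companion lists. The summed level of the 11 endothelial markers was 947.9 to 1202 CPM in ctrl, 1133 to 1248 CPM at 2wk and 1283 to 1700 CPM at 6wk. The mean was 1.34-fold higher at 6wk than in ctrl (adjusted P = 0.00812, exact permutation test, two-sided, 6 against 6 mice, adjusted over 15 tests) and 1.21-fold higher than at 2wk (adjusted P = 0.00812, exact permutation test). At 6wk 7 of the 11 were called higher and 1, Vwf, lower, while Egfl7, Cldn5 and Emcn were not called. Vwf, named after its value was seen, is typical of larger vessels. Endothelial genes outside this list went both ways at 6wk, such as Cd34 (log2 difference 0.54), Kdr (-0.00), Tie1 (-0.44) and Tek (-0.75). The sum therefore depends on which markers are listed. In bulk tissue more or fewer cells of a type and more or less RNA per cell cannot be told apart.

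Relative to the mean log2 level of the 11 endothelial markers in the same mouse, the 6wk differences of the 10 genes were smaller or more negative. This follows from the method, as the same rising marker level was subtracted from every gene. Apln was then at 3.52, Esm1 at 2.71, Angpt2 at 1.77, Ctla2a at 1.59, Mcam at 1.20 and Nid2 at 1.16, and Cd34 at 0.23. Tek was at -1.08, Aplnr at -0.73 and Angpt1 at -0.39. The differences of Apln, Esm1, Angpt2, Ctla2a, Mcam, Nid2 and Cd34 were above the mean difference of these 11 markers. Those of Tek, Aplnr and Angpt1 were below it. The 10 genes were selected on this contrast, so these values are a description. The part of endothelial cell content in them was not tested.

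Pericyte and smooth muscle markers, from cells that make Angpt1 and share Mcam, summed to 719.9 to 857.3 CPM in ctrl and 781.4 to 903.2 CPM at 6wk and did not differ by the exact permutation test (adjusted P = 0.232). Leukocyte markers summed to 63.5 to 173.3 CPM in ctrl and 176.2 to 255.4 CPM at 6wk, 2.04-fold higher (adjusted P = 0.00812, exact permutation test). Cardiomyocyte markers were 0.721 times (adjusted P = 0.0108, exact permutation test) and fibroblast markers 0.725 times (adjusted P = 0.0371, exact permutation test) their ctrl mean at 6wk. Of the 8 fibroblast markers 2 were called lower at 6wk by edgeR and 2 lay above 0. Gsn alone gave 1554 CPM of the mean fibroblast sum of 3085 CPM in ctrl. The fibroblast call was lost with library size alone, with TPM and without any 1 of ctrl mice 4 and 5 or 6wk mice 1, 3, 4, 5 and 6, and the cardiomyocyte call with TPM. With TMM no list passed the test against ctrl at 2wk, with adjusted P from 0.0794 to 0.206 (exact permutation test). This depended on scaling. With library size only and with TPM, the endothelial, pericyte and smooth muscle, and leukocyte sums were called higher at 2wk. The pericyte and smooth muscle sum was then also called higher at 6wk. The part of these shifts in the values of the 10 genes was not tested. Nor was their part in the companion genes, such as the rises of Dok2, Arrb2 and Plaur beside that of leukocyte markers.

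**Figure D5:**
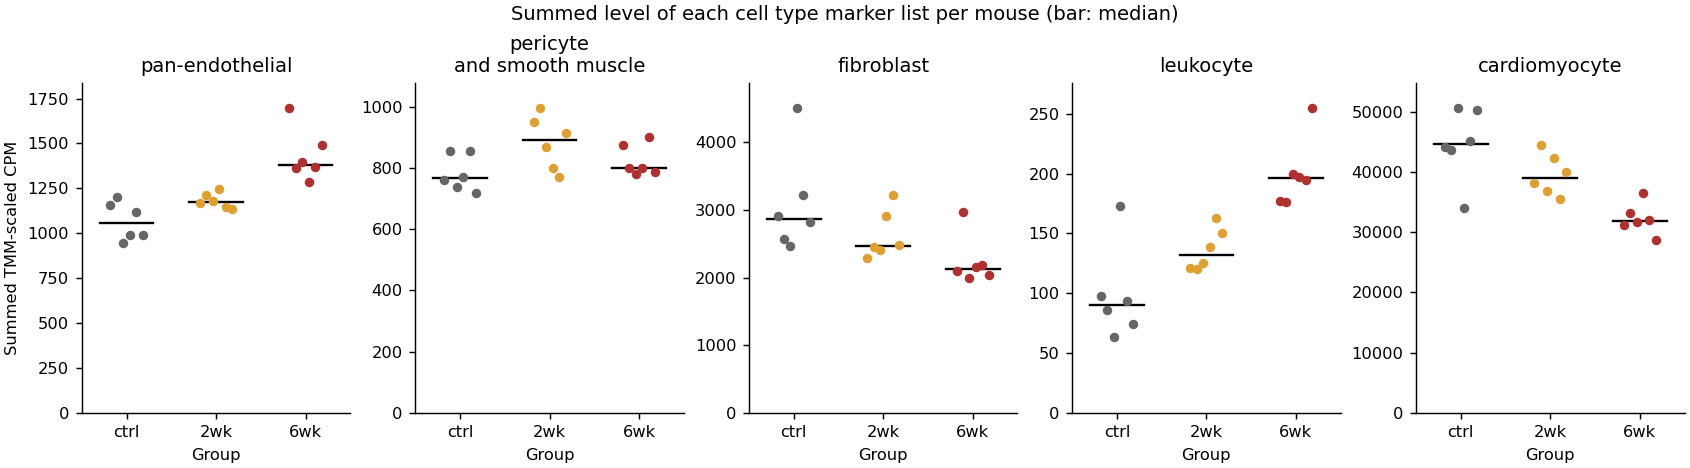
Summed TMM-scaled CPM of each cell type marker list (vertical axis from 0) in the 6 mice of each group, with a bar at the median. Endothelial and leukocyte sums are above ctrl in all 6 mice at 6wk, cardiomyocyte sums are mostly lower, and pericyte and smooth muscle sums overlap.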

How the data were processed

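RNA of the heart septum was sequenced by the authors in 18 mice (6 ctrl, 6 at 2wk and 6 at 6wk). Alignment by the authors was with STAR and transcript quantification with Salmon (version 1.0 in the submitters' processing notes, which also name CASAVA 1.8 and GRCm38) followed by gene-level summaries from tximport. The deposited estimated counts need not be whole numbers and were not scaled between mice. The deposited TPM values of the authors correct each mouse for length of transcripts and for sequencing depth. Here they serve for levels compared between genes, for ratios and for 2 alternatives.

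Gene symbols were matched to 29301 of 30072 deposited identifiers, and coordinates came from the GENCODE annotation of GRCm38. For the count model (edgeR 4.0.16 in R 4.3.3) estimated counts were rounded to whole numbers. The 15054 genes reaching 0.23 CPM in 6 or more mice were tested, libraries were scaled by TMM and the quasi-likelihood model held the 3 groups with all 18 mice. Tests were two-sided, with Benjamini-Hochberg adjustment over all genes tested and a threshold of 0.05. Differences on log2(TPM + pseudocount) understate those of low genes. Log2 CPM for correlations used a prior count of 2. Marker lists were compared by exact permutation tests. Alternatives were DESeq2 1.42.0, limma 3.58.1 (voom with sample weights, or a trend fit on log2(TPM + 1) and log2(TPM + 0.1)), other scalings and filters, a replicate block and leaving out each mouse. The fitting scripts were tested on simulated data.

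The 10 genes and the companion and marker lists were chosen with earlier results of these data known, so differences in the 10 genes are given as descriptions without P values. P values of the companion and marker lists are printed but are not independent support. Of each companion list the text names the genes called at 6wk versus ctrl, up to the 4 with the smallest P, and Ctla2b always. Apela, Furin, Angpt4, Foxo1, Svep1, Nid1, Hspg2, Col15a1, Kdr, Dll4, Rgcc, Kcne3, Col18a1, Ctsl and Gsn were named after their values were seen. For Apln, Esm1, Angpt2 and Ctla2a it names the 5 genes with the highest Pearson r, and some values that these rules would name are not reported here. The mice are separate animals by their labels, and P values measure the spread between them. Standard errors were derived from the edgeR fit and include the spread between mice. The floor of 3 counts, 0.194 to 0.26 CPM per mouse, covers counting error only.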

Additional observations from a re-analysis of the deposited data

Results flagged for a closer look

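In groups of 6 mice, 45 sets of values were looked at for a mouse far from the rest, and chance alone flags about 1 in 20. Of these 5 were found. Aplnr in 6wk mouse 1 was the only one among the 10 genes, with a gap to the next mouse of 0.632 of the range of the group. The others were summed marker levels. Fibroblast markers were highest in ctrl mouse 4 (0.631) and in 6wk mouse 2 (0.807), and leukocyte markers in ctrl mouse 4 (0.688) and in 6wk mouse 6 (0.698).

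For 9 companion genes the effects at 6wk and 2wk differed from each other by the edgeR test of 6wk versus 2wk, all higher at 6wk. The log2 differences between the irradiated groups were 0.52 for Arrb2, 0.55 for Pdgfb, 1.16 for Pgf, 0.43 for Fscn1, 0.69 for Col4a1, 0.63 for Col4a2, 0.77 for Sparc, 1.23 for Col18a1 and 0.70 for Ctla2b. Fscn1 and Ctla2b lost this call when single mice were left out. Summed marker levels also differed between 6wk and 2wk by the exact permutation test. The log2 ratio was 0.28 for endothelial, 0.55 for leukocyte and -0.30 for cardiomyocyte markers.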

How the results depend on the processing

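Under each alternative 8 of the 10 genes were called at 6wk versus ctrl, and the number called was 4 to 7 at 2wk versus ctrl and 5 to 7 at 6wk versus 2wk. Counts over the whole table moved with scaling, model and single mice. At 2wk versus ctrl 755 were called, against 1216 with DESeq2, 1789 with library size only, 2813 with log2(TPM + 1), 3026 with log2(TPM + 0.1) and 453 to 882 without 1 mouse (lowest without ctrl mouse 3). At 6wk versus ctrl 3760 were called, against 5820 with library size only, 7472 and 7463 with the TPM fits and 3089 to 3927 without 1 mouse. At 6wk versus 2wk 802 were called, against 1164 with DESeq2, 1196 with voom, 1202 with library size only, 1073 with log2(TPM + 1), 751 with log2(TPM + 0.1), 567 with no filter and 323 to 995 without 1 mouse (lowest without 6wk mouse 6). Of 48 companion genes 11 were called at 2wk, against 17 with DESeq2, 19 with each TPM fit and 7 to 14 without 1 mouse. At 6wk versus 2wk 9 were called, against 14 with DESeq2, 15 with voom, 15 with library size only, 14 with log2(TPM + 1) and 7 to 14 without 1 mouse. Ptprb changed sign in the TPM fits (0.033 and 0.035 at 2wk, 0.057 and 0.060 at 6wk, with 1 and 0.1 added to TPM). The cause was not tested.

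Marker sums (log2 ratios to ctrl) were called with library size only and with TPM, but not with TMM, for endothelial (0.29 and 0.32), pericyte and smooth muscle (0.32 and 0.53) and leukocyte (0.61 and 0.67) lists at 2wk and for pericyte and smooth muscle at 6wk (0.33 and 0.47). The lower fibroblast sum at 6wk was not called with library size only (-0.21), TPM (-0.11) or without some single mice (-0.56 to -0.32), and the cardiomyocyte sum was not called with TPM (-0.077). Without 1 mouse the 2wk ratios were 0.11 to 0.18 for endothelial, 0.13 to 0.21 for pericyte and smooth muscle, 0.38 to 0.72 for leukocyte and -0.24 to -0.14 for cardiomyocyte markers, and fibroblast markers at 6wk versus 2wk had -0.33 to -0.16.

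With a replicate block 586, 3549 and 542 genes were called in the 3 comparisons. Mice with the same number did not vary together (r -0.08 to 0.11 over 18 pairs, 2 above 0.1, and 3 of 18 mice matched their own number best), so the numbers were not taken as a pairing. Counts of 10 to 37 limit what can be seen for Esm1 at 2wk.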
